A study of Mus musculus with 10 samples.

Results

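The 3 D-type cyclin genes Ccnd1, Ccnd2 and Ccnd3, the kinase genes Cdk4 and Cdk6, the retinoblastoma gene Rb1 and the inhibitor genes Cdkn1b, Cdkn1c and Cdkn2c are described here in mouse calf muscle. They are 9 of 22180 measured genes and form the core of the G1 step of the cell cycle. They were chosen by name around Ccnd1, whose log2 difference between the diets had been seen in these same data, so that difference is given as a description with no test. The samples were gastrocnemius muscles of male NMRI mice, an outbred stock, with 1 Affymetrix Mouse Gene 2.0 ST array per mouse. The control group of 5 mice ate a natural-ingredient diet whose own carnitine content was under 5 mg per kg. The carnitine group of 5 mice ate that diet with 1000 mg L-carnitine added per kg. Mice entered the study at the age of 3 weeks, in cages of 5. Animals of each diet were killed at 9, 15 and 18 months, and the labels do not give the age of the mice on the arrays, so age may differ between these mice. The comparison asks how long-term carnitine feeding relates to the muscle's RNA levels.

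D-type cyclins are the regulatory partners of the kinases CDK4 and CDK6. The paired enzyme phosphorylates the retinoblastoma protein, which otherwise holds E2F transcription factors in check, so that genes of DNA replication can be switched on. Inhibitors of the INK4 family, to which the Cdkn2c product p18 belongs, bind CDK4 and CDK6 directly, while p27 (Cdkn1b) and p57 (Cdkn1c) bind whole cyclin-kinase complexes. Muscle fibres have left the cell cycle for good, and the cells of adult muscle that can divide lie between them, among them satellite cells, fibroblasts and endothelial cells.

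Values are RMA log2 values, on which a step of 1 is a doubling, and differences are carnitine minus control. Fibre markers of the labelled tissue were high, since the mean over 14 fast-fibre genes lay between 12.90 and 13.06 on every array, against 5.80 for the median probe set. Control replicate 5 stood apart in its distribution (interquartile range 2.20, and 2.39 to 2.59 elsewhere) and had the highest array median, 5.96. In limma, 0 of 22180 genes passed an adjusted p of 0.05, and 1546 genes (6.97%) had an unadjusted p below 0.05. The median standard error of a difference was 0.11 on the log2 scale, and the number of arrays limits this precision.

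Ccnd1, whose product is the D-type cyclin best known as a target of growth factor signals, was higher in each carnitine mouse than in any control mouse. Control mice 1 to 5 had log2 values of 6.48, 6.44, 6.42, 6.54 and 6.27, and carnitine mice 1 to 5 had 6.86, 6.92, 6.75, 6.83 and 6.63. The groups were separated by a gap from 6.54, the highest control, to 6.63, the lowest carnitine mouse. The control mean was 6.43 ± 0.10 and the carnitine mean 6.80 ± 0.11 (SD, n = 5 mice each). Carnitine mice were thus 0.37 higher (SE 0.089), or 1.29-fold. Of all genes, 112 (0.505%) were higher in carnitine with no overlap of the groups, and 164 genes had a larger positive difference than Ccnd1. The choice of Ccnd1 used this comparison, so nothing is read from those shares. The difference ranged from 0.33 without control replicate 5, the lowest control mouse, to 0.41 without carnitine replicate 5, the lowest carnitine mouse.

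**Figure D1:**
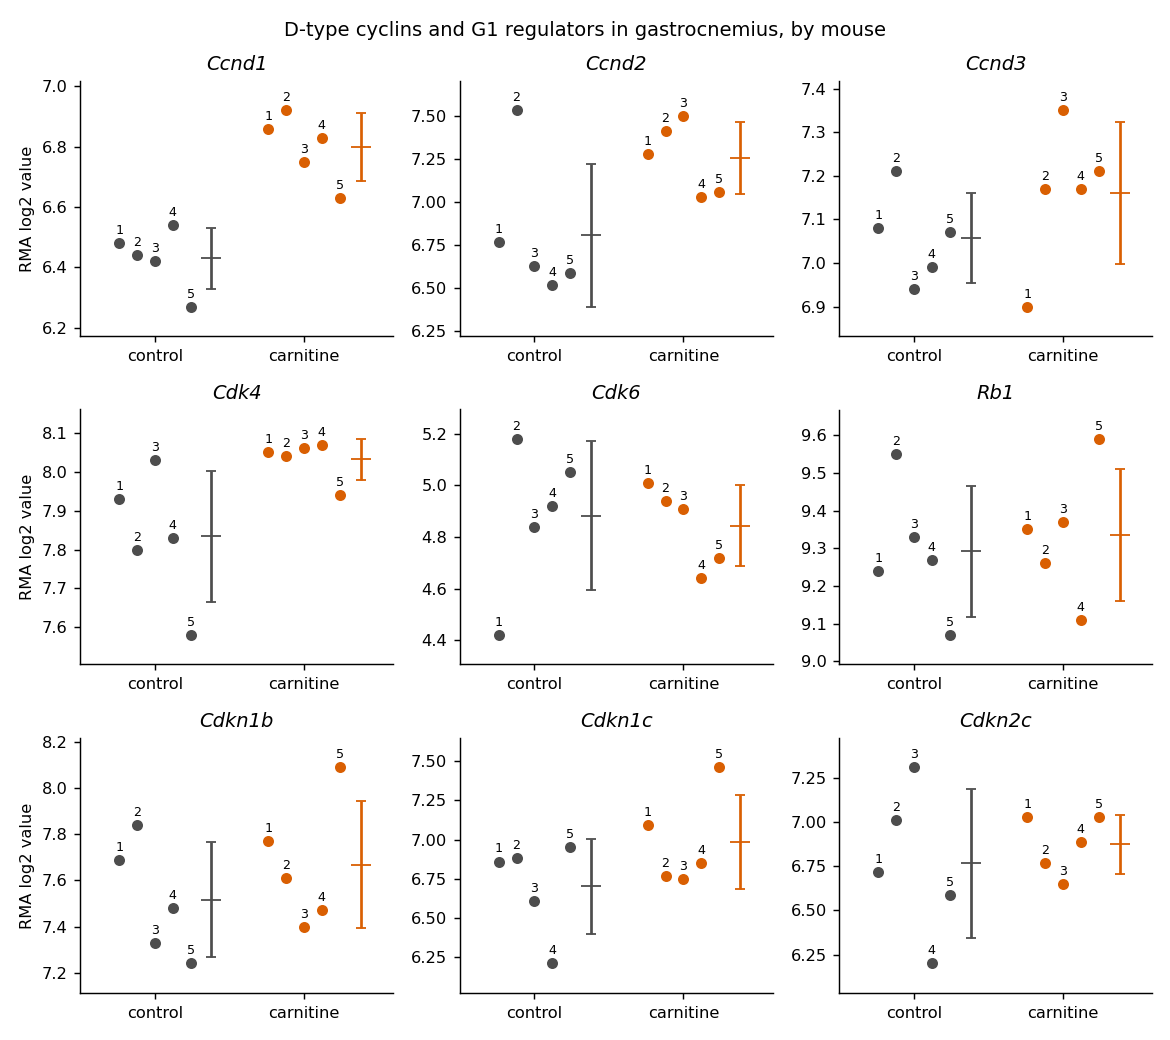
RMA log2 value (vertical axis, a separate scale for each gene) of each of the 9 genes in 5 control and 5 carnitine mice, numbered by replicate, with bars at the mean ± SD. Ccnd1 values of carnitine mice, 6.63 to 6.92, lie above all control values, 6.27 to 6.54, while the groups overlap for the other 8 genes.

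Ccnd2, which encodes a D-type cyclin closely related to cyclin D1, had the largest mean difference of the 9 genes, and a single control mouse made the groups overlap. Control mice 1 to 5 had log2 values of 6.77, 7.53, 6.63, 6.52 and 6.59, and carnitine mice 1 to 5 had 7.28, 7.41, 7.50, 7.03 and 7.06. Control replicate 2, at 7.53, was the highest of all 10 mice, and the other control mice lay below every carnitine mouse. The means were 6.81 ± 0.41 and 7.26 ± 0.21 (SD, n = 5 mice each), a difference of 0.45 (SE 0.17) or 1.36-fold, with a 95% confidence interval from 0.08 to 0.81. It did not pass in limma (unadjusted p = 0.02, Benjamini-Hochberg adjusted p = 0.712). Without control replicate 2 the difference was 0.63 with a limma adjusted p of 0.275, and over the omissions of the other arrays it ran from 0.376 to 0.505. Omission of control replicate 2 also lowered the limma adjusted p of other members, to 0.478 for Cdk4 and 0.479 for Cdkn1c. It raised the count of all genes with an unadjusted limma p below 0.05 from 1546 to 2560.

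Ccnd3, the D-type cyclin known for its accumulation when myoblasts leave the cell cycle and differentiate, showed a small mean difference inside the spread of the mice. Its control log2 values ran from 6.94 to 7.21 around a mean of 7.06 ± 0.10, and its carnitine values from 6.90 to 7.35 around 7.16 ± 0.16 (SD, n = 5 mice each). Carnitine replicate 1, at 6.90, was the lowest of all 10 mice and carnitine replicate 3, at 7.35, the highest. The difference was 0.10 (SE 0.097, 95% confidence interval from -0.11 to 0.31, limma adjusted p = 0.787).

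Cdk4, which encodes the kinase partner of the D-type cyclins found in most tissues, had nearly the same level in the carnitine mice and a wider spread in the control mice. Control mice 1 to 5 had log2 values of 7.93, 7.80, 8.03, 7.83 and 7.58, and carnitine mice 1 to 5 had 8.05, 8.04, 8.06, 8.07 and 7.94. Of the carnitine mice, 4 lay above every control mouse, and carnitine replicate 5 lay below control replicate 3. The means were 7.83 ± 0.17 and 8.03 ± 0.05 (SD, n = 5 mice each), and the difference was 0.20 (SE 0.092) or 1.15-fold. It did not pass in limma (unadjusted p = 0.0486, adjusted p = 0.712). Without control replicate 5, the lowest mouse for Cdk4 as for Ccnd1, the Cdk4 difference was 0.135.

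Cdk6, the alternative kinase partner, was measured by a dim probe set with a mean of 4.86, under the 5.80 of the median probe set, where RMA shrinks differences. Control mice ran from 4.42 to 5.18 and carnitine mice from 4.64 to 5.01, with a difference of -0.04 (SE 0.13, 95% confidence interval from -0.32 to 0.25, limma adjusted p = 0.945) whose sign turned after other scalings of the arrays. These values set no direction for Cdk6.

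The start regions of the 2 kinase genes are shown because Cdk4 is a textbook target of the transcription factor MYC, which binds E-box letters, and Myc itself was measured on the arrays. RefSeq windows from 250 bases before to 50 bases after each gene's start (GRCm38.p6, forward strand, 5′ to 3′) are given with the palindromic E-box letters CACGTG in capitals. The Cdk4 window is chr10:127063285-127063584 and the Cdk6 window chr5:3343643-3343942.
Cdk4: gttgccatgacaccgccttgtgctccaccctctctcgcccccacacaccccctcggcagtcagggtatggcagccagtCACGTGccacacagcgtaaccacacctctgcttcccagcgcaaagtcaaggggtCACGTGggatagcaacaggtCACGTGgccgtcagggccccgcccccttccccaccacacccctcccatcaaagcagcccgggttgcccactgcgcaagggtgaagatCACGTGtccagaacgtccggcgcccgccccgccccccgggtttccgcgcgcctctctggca
Cdk6: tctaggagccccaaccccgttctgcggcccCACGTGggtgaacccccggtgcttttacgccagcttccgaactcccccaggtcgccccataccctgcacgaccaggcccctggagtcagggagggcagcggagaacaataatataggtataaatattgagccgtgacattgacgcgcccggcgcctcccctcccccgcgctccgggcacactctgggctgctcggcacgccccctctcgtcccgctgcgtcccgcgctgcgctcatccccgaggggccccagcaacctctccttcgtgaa

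The Cdk4 window held the E-box letters at 4 places, starting at positions -172, -118, -98 and -11 from the gene's start, and the Cdk6 window held them at 1 place, at -220. Of the 7 windows found for the 9 genes, 3 held the letters, the other being a Cdkn2c window with 1 place at position 35. Of 32851 such windows of mouse genes, 7.15% held the letters at least at 1 place and 8 windows (0.0244%) held them at 4 places or more. The motifs were chosen after the sequences had been read, and 4 is the number found in Cdk4, so nothing is read from these shares. The log2 value of Myc was 6.88 ± 0.21 in control mice and 6.88 ± 0.16 in carnitine mice (SD, n = 5 mice each), with a difference of -0.002 (SE 0.12) and a limma adjusted p of 0.994. The 7 windows belong to 5 of the 9 genes, namely Ccnd3, Cdk4, Cdk6, Cdkn1b and Cdkn2c. No window was available for Ccnd1, Ccnd2, Rb1 or Cdkn1c, so their start regions were not searched. On both strands 5 motifs were searched, and no GC box overlapped an E-box. Of the 7 windows 5 held the GC box letters GGGCGG, present in 35.7% of all windows. None of the 7 held TGACGTCA (a CRE, 1.79% of all windows), TGACTCA (an AP-1 site, 5.2%) or the E2F letters TTTCCCGC or TTTGGCGC (1.56%). A match to letters is a description of the sequence, not of binding.

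Rb1, which encodes the retinoblastoma protein that D-type cyclin kinases inactivate, showed no difference beyond the spread of the mice. Control mice ran from 9.07 to 9.55 (9.29 ± 0.17) and carnitine mice from 9.11 to 9.59 (9.34 ± 0.17, SD, n = 5 mice each). The difference of 0.04 (SE 0.11, 95% confidence interval from -0.18 to 0.27, limma adjusted p = 0.915) turned negative after cyclic loess, quantile normalization or array weighting. The other Rb1 probe set with a single gene name was dim, with a mean of 4.12 and a difference of 0.04, and a further 2 probe sets that name Rb1 together with Lpar6 were not used.

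The inhibitor genes had positive mean differences and a wide spread between mice. Cdkn1b, which encodes p27, had log2 values of 7.69, 7.84, 7.33, 7.48 and 7.24 in control mice 1 to 5 and of 7.77, 7.61, 7.40, 7.47 and 8.09 in carnitine mice 1 to 5. Carnitine replicate 5 was the highest mouse, and the other 4 carnitine mice lay within the control range. The difference was 0.15 (SE 0.14, 95% confidence interval from -0.15 to 0.46, limma adjusted p = 0.785), and it was 0.046 without carnitine replicate 5.

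Cdkn1c, an imprinted gene that encodes p57, had a mean difference exceeded in this group by Ccnd2 and Ccnd1. Control mice 1 to 5 had log2 values of 6.86, 6.88, 6.61, 6.21 and 6.95, and carnitine mice 1 to 5 had 7.09, 6.77, 6.75, 6.85 and 7.46. Control replicate 4 was the lowest mouse and carnitine replicate 5 the highest, while carnitine replicates 2, 3 and 4 lay among the controls. The means were 6.70 ± 0.30 and 6.98 ± 0.30 (SD, n = 5 mice each), a difference of 0.28 (SE 0.16, 95% confidence interval from -0.06 to 0.62, limma adjusted p = 0.721). Without control replicate 4 it was 0.16.

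Cdkn2c, which encodes the INK4 inhibitor p18, ran from 6.20 to 7.31 in control mice and from 6.65 to 7.03 in carnitine mice. The carnitine mice thus lay inside the control range, with means of 6.77 ± 0.42 and 6.87 ± 0.17 (SD, n = 5 mice each). Its difference was 0.11 (SE 0.17, 95% confidence interval from -0.25 to 0.47, limma adjusted p = 0.866), and -0.033 without control replicate 4, the mouse at 6.20.

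**Figure D2:**
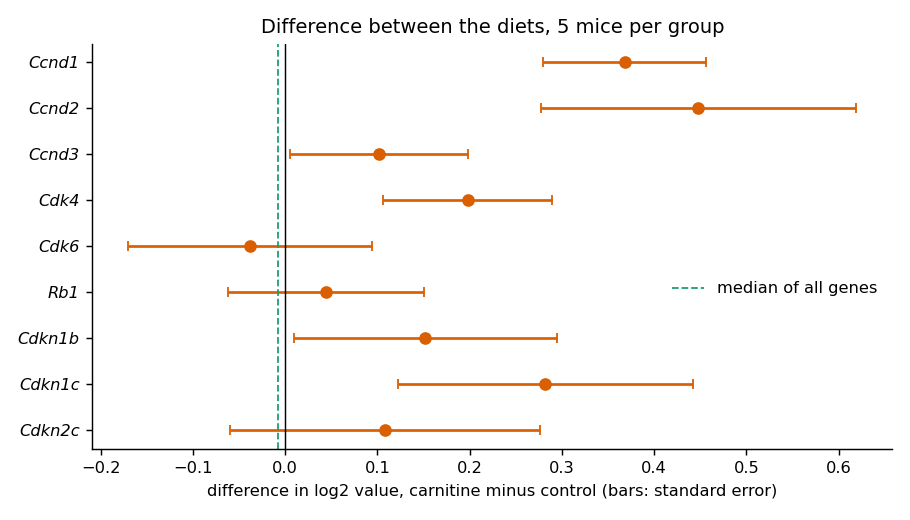
Difference in log2 value, carnitine minus control (horizontal axis), for each of the 9 genes, with bars for the standard error and a dashed line at the median of all genes, -0.008. Ccnd2 (0.45) and Ccnd1 (0.37) have the largest differences, and Cdk6 (-0.04) lies on the negative side.

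Among the 8 genes other than Ccnd1, 0 passed an adjusted p of 0.05 in limma, and 2, Ccnd2 and Cdk4, had an unadjusted p below 0.05, both higher in carnitine. Over all genes, 3.14% were higher and 3.83% lower at that unadjusted level, and 0% passed the adjusted threshold. Of the 9 genes, 8 had a positive difference and 1 a negative one, with a median of 0.15. Ccnd1 was chosen on this comparison, which set its positive sign, so nothing is read from the counts and medians of the 9 genes. Over all genes 47.7% were positive, with a median of -0.01, but the share depended on the signal. Among the 7534 genes with a mean between that of Ccnd1 and that of Rb1, 73.4% were positive, with a median of 0.07. After cyclic loess 8 of the 9 were again positive, with Rb1 then the negative one and Cdk6 positive, and their median was 0.09 against 0.002 over all genes. After the array medians were aligned, which moved the positive share of all genes to 62%, all 9 were positive, with a median of 0.20 against 0.04 over all genes.

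The 9 genes differed in how far the mice of a group lay apart. The SD within groups, pooled over both, was 0.106 for Ccnd1, 0.125 for Cdk4 and 0.136 for Ccnd3, under the median of 0.176 over all genes. It was 0.301 for Cdkn1c, 0.32 for Cdkn2c and 0.328 for Ccnd2. Thus Ccnd1, chosen on a comparison that can favour genes of small spread, had a smaller difference than Ccnd2 and a smaller spread between mice. The plot of omissions shows the same contrast, with the Ccnd1 differences close together and the Ccnd2 difference moved by control replicate 2.

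**Figure D3:**
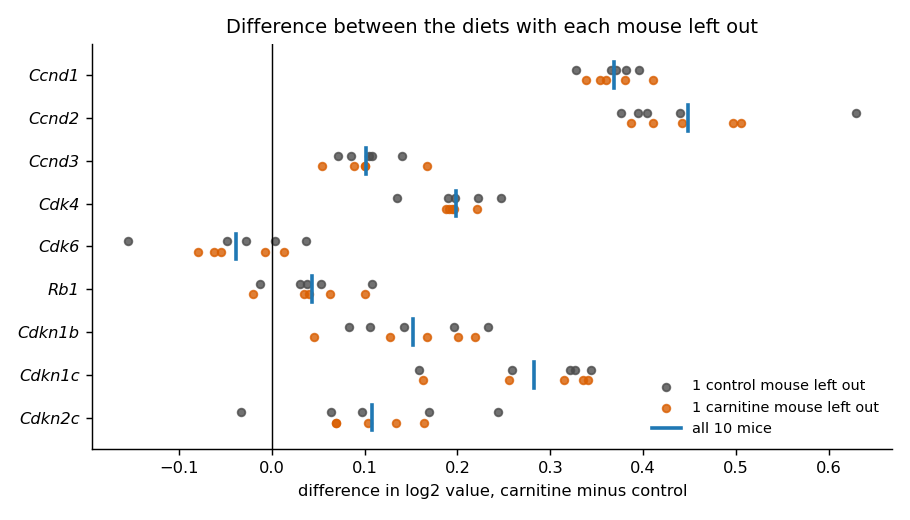
Difference in log2 value, carnitine minus control (horizontal axis), for each of the 9 genes with all 10 mice (vertical line) and with each mouse left out in turn (points, coloured by the group of the mouse left out). Ccnd1 stays between 0.33 and 0.41, Ccnd2 reaches 0.63 without control replicate 2, and Cdk6, Rb1 and Cdkn2c lie on both sides of 0.

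Whether these genes move together from mouse to mouse was examined after each group's mean had been removed, which takes out the difference between the diets. Over 36 pairs of genes, 0 correlations passed after Benjamini-Hochberg adjustment (lowest adjusted permutation p 0.728 for Pearson's r and 0.811 for Spearman's rho). At an unadjusted permutation p below 0.05 there were 2 pairs by Pearson's r and 0 by Spearman's rho. Rb1 and Cdkn1b had r = 0.761 (permutation p = 0.0202) and rho = 0.576 (permutation p = 0.108) over 10 mice, with r = 0.75 within control and 0.771 within carnitine. Without the 2 mice farthest from the median of Rb1, r was 0.317, so by that measure the relation rests on those mice, while r ran from 0.625 to 0.868 when any 1 mouse was left out. It was 0.827 with aligned array medians and 0.695 after cyclic loess. Ccnd1 and Cdkn1c had r = -0.685 (permutation p = 0.049, two-sided) and rho = -0.588 (permutation p = 0.0952), and r = -0.283 without the 2 mice farthest in Ccnd1. This r was -0.296 with aligned array medians and -0.661 after cyclic loess. It ran from -0.791 to -0.485 when any 1 mouse was left out. In these 2 genes carnitine replicate 5 was the lowest carnitine mouse for Ccnd1 and the highest for Cdkn1c. Ccnd1 and Cdk4 had r = 0.566 (permutation p = 0.0834) and rho = 0.273 (permutation p = 0.44), and r = -0.348 without the 2 mice farthest in Ccnd1. This r was 0.184 without control replicate 5, 0.327 after cyclic loess and 0.792 with aligned array medians. The 3 D-type cyclins did not share a pattern that passed. For Ccnd2 and Ccnd3 r was 0.494 (permutation p = 0.113) and rho 0.419 (permutation p = 0.242). For Ccnd1 and Ccnd3 r was -0.325 (permutation p = 0.405) and rho -0.529 (permutation p = 0.157). For Ccnd1 and Ccnd2 r was 0.16 (permutation p = 0.654) and rho 0.0424 (permutation p = 0.921). Without the 2 mice farthest in the gene named before the other, r was -0.191, -0.426 and -0.303 in that order.

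**Figure D4:**
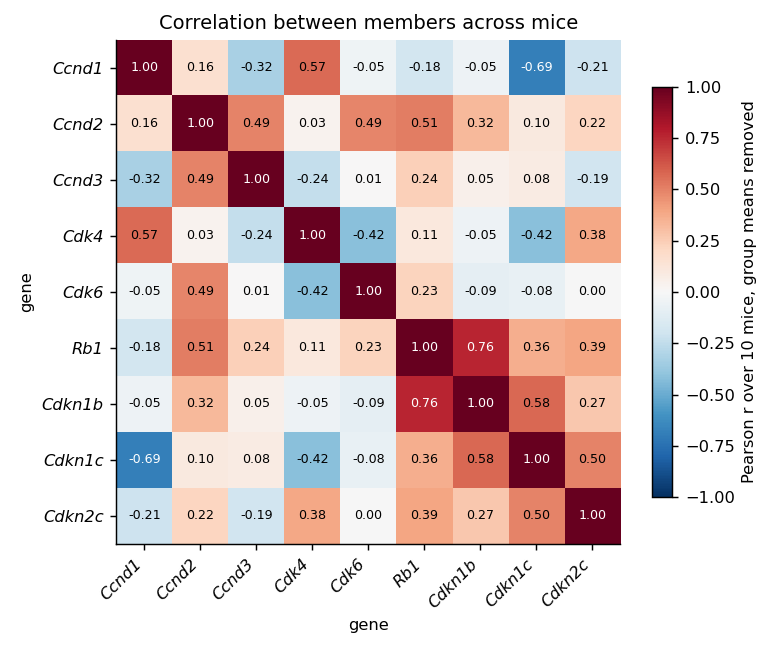
Pearson's r between each pair of the 9 genes over 10 mice after each group's mean was removed (colour scale from -1 to 1, value in each cell). The highest r is 0.76, between Rb1 and Cdkn1b, and the lowest -0.685, between Ccnd1 and Cdkn1c, and 0 of 36 pairs passed after adjustment.

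The genes with the pattern most like each member were found by Pearson's r over the 10 mice with group means removed. The search covered 10355 genes above the median gene level (10356 for Cdk6, which lies below it). Predicted genes with Gm or Rik symbols, microRNA genes and small nucleolar RNA genes were left out of it. The best of so many genes has a high r by selection, and no p is given. Ccnd1 was most like Ddx39a, an RNA helicase gene (r = 0.966), Plxna2, a plexin receptor gene (0.954), and Ccdc97 (0.942). For Ccnd2 these were Mkks (0.949), Naa60 (0.935) and Ywhab, a phosphoprotein-binding adaptor gene (0.924). Cdk4 was most like Tmem38a, which encodes a cation channel of the sarcoplasmic reticulum (0.991), Kdelr1 (0.984) and Rbm22 (0.976). The gene with the highest r was Chst14 for Ccnd3 (0.874), the receptor tyrosine kinase gene Axl for Cdk6 (0.949), Nus1 for Rb1 (0.97), Gtf2a2 for Cdkn1b (0.986), Stk10 for Cdkn1c (0.921) and Zfp369 for Cdkn2c (0.984). The differences between the diets were 0.12 in Ddx39a, 0.06 in Plxna2 and 0.01 in Ccdc97, each smaller than in Ccnd1.

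Other genes of the pathway were followed in 8 lists, in which 144 of 153 genes were measured, and 0 of them passed in limma at an adjusted p of 0.05. The sign of a difference went with the signal over all genes, since 62.9% of the 12912 genes above the median probe set level were positive and 26.7% of the 9268 genes at or below it, so counts of signs are given beside these shares. Of 11 measured genes listed with cyclins E and A, CDK2 and related kinases, among them Ccnc, Cdk8 and Cdk3, 8 had a positive and 3 a negative difference. The median of the 11 was 0.08 against -0.01 over all genes, and 0 had an unadjusted p below 0.05 against 6.97% of all genes. Ccne1, which encodes cyclin E1, differed by 0.08 (SE 0.11), Cdk2 by 0.13 (SE 0.10) and Cdk7, the kinase that activates cyclin-dependent kinases, by 0.19 (SE 0.098, limma adjusted p = 0.719). Of 16 pocket protein and E2F genes 13 were positive and 3 negative, with a median of 0.06. Rbl2, which encodes the retinoblastoma relative p130 of resting cells, differed by 0.17 (SE 0.11), E2f3 by 0.26 (SE 0.18), E2f1 by 0.06 (SE 0.095) and Rbl1 by -0.01 (SE 0.11).

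Of 6 measured genes listed with the other inhibitors, 5 of them above the median probe set level, 4 had a negative difference and 2 a positive one, with a median of -0.11, and 0 had an unadjusted p below 0.05. Cdkn1a, which encodes the p53 target p21, had a control mean of 8.75 ± 0.42 and a carnitine mean of 8.54 ± 0.33 (SD, n = 5 mice each), with a difference of -0.20 (SE 0.19, limma adjusted p = 0.788). The INK4 genes Cdkn2b, Cdkn2a and Cdkn2d differed by -0.20 (SE 0.11), -0.08 (SE 0.097) and 0.04 (SE 0.080). Cdkn2aip, whose product binds ARF and is itself no kinase inhibitor, differed by 0.18 (SE 0.12). The median of the list lay between -0.14 and -0.07 over the omissions of single arrays.

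Of 24 measured genes that E2F factors switch on for DNA replication, 12 were positive and 12 negative, and 9 of the 24 were dim. Their median was 0.003, and between 0.043 and 0.053 with array weights, aligned array medians, quantile normalization or cyclic loess, and 1 in each direction had an unadjusted p below 0.05. These were Rrm1, a subunit gene of ribonucleotide reductase, at 0.27 (SE 0.10, limma adjusted p = 0.712) and the DNA ligase gene Lig1 at -0.23 (SE 0.11, limma adjusted p = 0.712). Mcm2 of the replication helicase differed by 0.12 (SE 0.10) and Pcna, the replication clamp, by 0.09 (SE 0.097). Orc1, a dim gene, had each carnitine mouse below every control mouse (-0.17, SE 0.083), a pattern found in 0.609% of all genes.

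Genes of mitosis were mostly dim, with 20 of the 24 measured at or under 5.80. Of the 24, 7 were positive and 17 negative, beside the 26.7% positive among all dim genes, with a median of -0.03. That median turned to 0.021 with array weights, 0.023 with aligned array medians, 0.025 after quantile normalization and 0.037 after cyclic loess, and to 0.010 without control replicate 5. Kif11, a dim gene that encodes a mitotic motor, was the 1 gene with an unadjusted limma p below 0.05. That is 4.17% of the list, against 6.97% of all genes. Kif11 differed by -0.29 (SE 0.088, limma adjusted p = 0.712), with no overlap between the groups, as in 0.609% of all genes in that direction. The proliferation marker Mki67 differed by -0.16 (SE 0.11) and the topoisomerase Top2a by -0.13 (SE 0.11). The mean over this list ran from 5.18 to 5.47 in control and from 5.21 to 5.32 in carnitine mice.

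**Figure D5:**
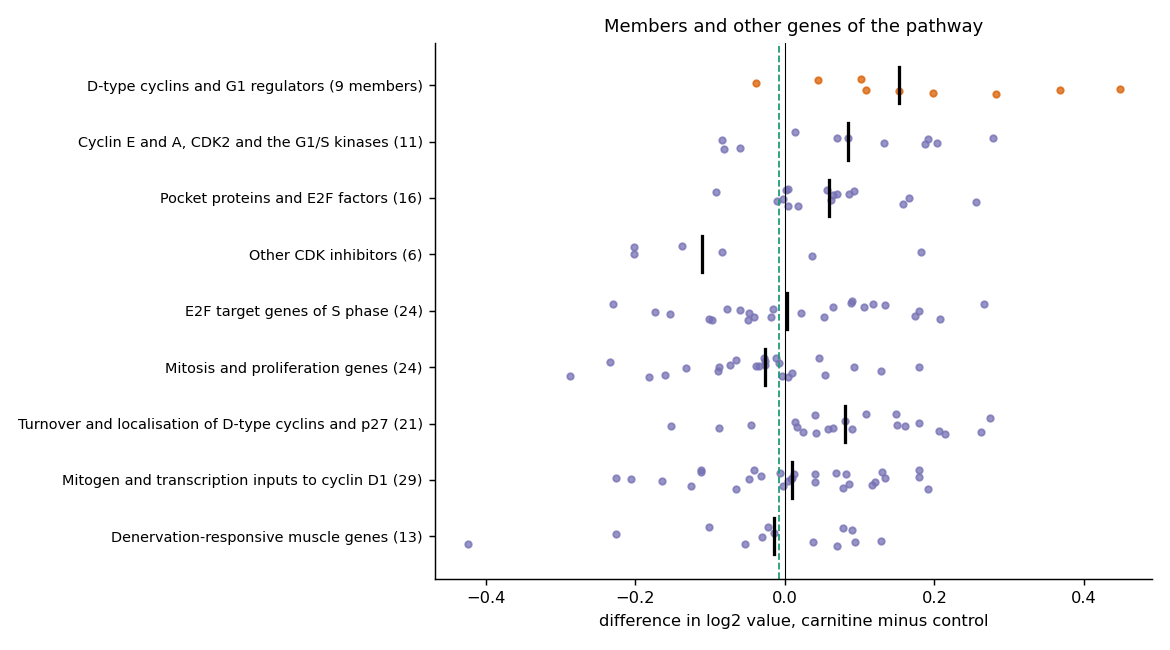
Difference in log2 value, carnitine minus control (horizontal axis), of the 9 members (orange) and of the measured genes of 8 lists of the pathway (purple, number of genes in brackets), with a bar at each median and a dashed line at the median of all genes. The members' median, which includes Ccnd1, chosen on this comparison, is 0.15, and the list medians run from -0.11 to 0.08.

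Among 21 measured genes that act on the turnover or localisation of D-type cyclins and p27, 18 were positive and 3 negative, with a median of 0.08. Of the 21, 20 lay above the median probe set level, where 62.9% of all genes were positive. In the band from Ccnd1 to Rb1, 73.4% of all 7534 genes were positive, with a median of 0.07. After quantile normalization the list median was 0.026, after cyclic loess 0.020, and with aligned array medians 0.130. Xpo1, the nuclear exporter, was the 1 gene with an unadjusted p below 0.05 (0.27, SE 0.12, limma adjusted p = 0.712). Cul4a, a ubiquitin ligase scaffold, differed by 0.21 (SE 0.097), Skp1 by 0.16 (SE 0.077), Gsk3b, a kinase that marks cyclin D1 for export and degradation, by 0.04 (SE 0.078), and Ambra1, the receptor that targets D-type cyclins for destruction, by 0.02 (SE 0.094). Among 29 measured genes of signals and factors upstream of Ccnd1, 17 were positive and 12 negative, with a median of 0.01, and 0 had an unadjusted p below 0.05. Ctnnb1, which encodes beta-catenin, differed by 0.04 (SE 0.079), Fosl2 by 0.13 (SE 0.095), Stat5a by 0.13 (SE 0.084) and Foxo1 by -0.21 (SE 0.12). Of 13 genes that respond to denervation 6 were positive and 7 negative, with a median of -0.01, with the fetal receptor subunit Chrng at -0.42 (SE 0.17, limma adjusted p = 0.712), Myog at 0.09 (SE 0.17) and Runx1 at 0.13 (SE 0.088).

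A muscle sample holds fibres and other cells, and in such a sample more cells of a type and more RNA per cell cannot be told apart. The widest shift of the 13 marker lists was that of the slow fibres, in which 13 of 14 markers had a negative difference, with a median of -0.87. Of these 14, 10 were lower at an unadjusted limma p below 0.05, beside 3.83% of all genes, and 0 passed an adjusted p of 0.05. The marker lists were chosen with earlier results of these data known, so nothing is read from such counts and shares. The mean over the slow-fibre list ran from 8.90 to 9.68 in control and from 7.20 to 9.43 in carnitine mice. Of 14 fast-fibre markers 12 were positive, with a median of 0.05, and 3 were higher at an unadjusted p below 0.05, beside 3.14% of all genes. Of 14 satellite cell markers 9 were positive, with a mean over the list of 6.93 to 7.00 in control and 6.95 to 7.06 in carnitine mice. Myf5 differed by 0.27 (SE 0.12), Megf10 by 0.25 (SE 0.11) and the defining marker Pax7 by -0.09 (SE 0.094). All 12 measured fibroblast markers were positive, with a list mean of 7.58 to 8.25 in control and 7.81 to 8.40 in carnitine mice. Each of the 12 lay above the median probe set level, where 62.9% of all genes were positive, and 0 had an unadjusted limma p below 0.05. Of 12 tendon cell markers 8 were positive (6.33 to 6.62 and 6.45 to 7.01), with 4 higher at an unadjusted p below 0.05, and of 14 endothelial markers 7 were (7.49 to 8.11 and 7.73 to 8.11). Pericyte and smooth muscle markers were positive in 10 of 13 cases (8.44 to 8.63 and 8.54 to 8.66), and of 11 Schwann cell markers 7 were (5.91 to 6.15 and 5.83 to 6.30). Of 14 macrophage markers 6 were positive (6.02 to 6.47 and 6.04 to 6.28), and of 11 adipocyte markers 4 were (7.63 to 7.95 and 7.63 to 7.82). Levels within a list differed, with means of 12.63 for Des among pericyte and smooth muscle markers, and 11.27 for Lpl and 5.24 for Adipoq among adipocyte markers. Which cells gave these signals was not tested. None of the 9 T cell markers (5.49 to 6.12 and 5.48 to 5.63), 1 of the 9 B cell markers (5.84 to 6.27 and 5.87 to 5.97) and 1 of the 12 neutrophil markers (4.84 to 5.17 and 4.80 to 4.98) were positive, and 6, 6 and 10 of these markers were dim, a level at which 26.7% of all genes were positive. The ranges of the groups overlapped for each of these 13 lists, and their part in the Ccnd1 and Ccnd2 values was not tested.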

How the data were processed

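The deposited table holds log2 values of 34390 probe sets on 10 arrays, made by the authors with RMA in Affymetrix Expression Console per the submitters' processing notes; the sources used here give neither versions nor a genome build. RMA scales the arrays to each other, so total RNA per sample is not seen. The array medians of the deposited values still ran from 5.72 in carnitine replicate 1 to 5.96 in control replicate 5. The platform's annotation gives 1 symbol to 23521 probe sets, several to 1814, and does not list 9055, which stay unnamed here. Per gene, the probe set with the highest mean over all arrays was kept (22180 genes, no filter on dim signal). Diets were compared with limma 3.58.1 in R 4.3.3 (lmFit, eBayes with trend), two-sided, Benjamini-Hochberg adjusted over all genes, threshold 0.05; the code was tested on simulated data. Correlations used 100000 permutations within groups. The members and lists were chosen with earlier results of these data known. Named from the lists were up to 4 genes with the smallest unadjusted p and 20 genes whatever their values, 47 measured in all, of which the text prints a part. For each member the 3 genes most like it were taken, among genes above the median gene level without Gm, Rik, microRNA or small nucleolar RNA symbols. Motifs were chosen after the sequences had been read. Replicate numbers 1 to 5 occur in both groups, and the labels tie no pair together. Nothing says that a replicate is other than 1 mouse. Alternatives were the omission of each array, other scalings and probe sets, array weights, variance models without trend or with robust estimates, a replicate block and the removal of dim genes.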

Additional observations from a re-analysis of the deposited data

Results flagged for a closer look

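In a group of 5, a mouse was singled out where its gap to the nearest other mouse exceeded 0.71 of the group's range, which chance gives in about 1 in 20 groups. Of 18 groups checked for the 9 members this held in 2. Control replicate 2 had a Ccnd2 value of 7.53 against 6.52 to 6.77 in the other controls, and carnitine replicate 5 a Cdk4 value of 7.94 against 8.04 to 8.07. Of 94 groups checked for other genes of the pathway it held in 3. These were Cdk8 in control replicate 5 (7.70 against 7.96 to 8.03), Chrna1 in carnitine replicate 1 (7.10 against 7.40 to 7.50) and E2f1 in carnitine replicate 3 (6.29 against 6.38 to 6.40).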

How the results depend on the processing

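Ccnd1, Ccnd2, Ccnd3, Cdk4, Cdkn1b and Cdkn1c kept a positive difference under each alternative run. For Ccnd1 no omission of 1 mouse could turn the sign, since its groups do not overlap. None of the 8 members tested passed an adjusted p of 0.05 in limma under any alternative. The Cdk6 difference turned to 0.012 with array weights, 0.012 with aligned array medians, 0.032 after quantile normalization and 0.040 after cyclic loess. The Rb1 difference turned to -0.006 with array weights, -0.055 after quantile normalization and -0.062 after cyclic loess. Over the omission of each array, the difference ran from -0.154 to 0.037 for Cdk6, from -0.020 to 0.108 for Rb1 and from -0.033 to 0.244 for Cdkn2c. The cause of these turns was not tested. The count of genes past an adjusted p of 0.05 ran from 0 to 1 over the omissions, the 1 being B4galnt2 without control replicate 2, and it was 0 at a threshold of 0.10. The count at an unadjusted limma p below 0.05 was 1546 of 22180 genes in the main run. It was 844 of the 12912 genes above the median probe set level and 2437 of all 34390 probe sets, and ran from 1115 to 2560 over the omissions. The groups did not overlap in 247 of all genes in the main run, in 135 of those above the median probe set level and in 412 of all probe sets. Over the omissions this was so in 359 to 831 genes, but groups separate more easily with 1 mouse fewer. The median of the replication list was 0.064 without dim genes and 0.053 with aligned medians. With the replicate block the adjusted p of Ccnd2 was 0.605 and no call changed. The correlations of same-numbered mice ran from -0.108 to 0.225 and were not all above 0.1, the minimum set here for treating them as pairs. Whether same-numbered mice shared a cage, an age or a batch cannot be told from these values. Cdk6 fell below the filter on dim genes and has no value there.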
